A study of Drosophila melanogaster with 2 samples.

Results

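The gap and pair-rule genes divide the *Drosophila* embryo into segments, and 10 of them that encode transcription factors without a homeodomain were examined in *yw* and *mid* mutant embryos late in embryogenesis. They were the gap genes *hb*, *Kr*, *gt* and *tll* and the pair-rule genes *h*, *run*, *odd*, *opa*, *slp1* and *slp2*. Members were found by symbol, or by a unique synonym, among probe sets annotated to a single gene. Of the 10 genes, 8 had such a probe set, out of 10844 genes named on the array. *h* was matched through its current symbol *hry*, and *run* and *slp1* were not analysed here.

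Gap genes are switched on by maternal gradients in the early embryo and mark out broad regions along its length. Pair-rule genes read these regions as stripes in alternate segments, and their products set the narrower stripes of segment polarity genes such as *en* and *wg*. Most of these stripes fade after gastrulation, and many of the same genes are used again later, in neuroblasts, the brain, muscle, gut, excretory organs or salivary glands.

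Total RNA of each genotype was biotin-labelled for 1 Affymetrix array, so the comparison rests on 2 arrays. The control embryos were *yw*, a stock mutant in the pigmentation genes *yellow* and *white*. The other embryos were homozygous for *mid*, a gene that encodes a T-box transcription factor, and were recognised with the balancer CyOact-GFP. The allele of *mid* and the number of embryos pooled are not given in the labels. Embryos of either genotype had spent 16 h at 25 °C since egg laying. As the control the labels name *yw* embryos, while the study's Methods mention heterozygous as well as homozygous *mid* embryos and its Results wild-type embryos. With *yw* as the control, differences between the stocks and an effect of *mid* cannot be told apart. The signal of *mid* was 49.3 in the control and 56.8 in the mutant, too dim in either to check the genotype.

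Values were MAS5 signals, linear intensities that summarise the probes of a probe set. The *yw* array was brighter as a whole, with a median of 150.2 against 43.3 over 14010 probe sets. The *mid* array was therefore multiplied up to the median of the *yw* array, and every signal below is on that common scale. Any signal under 97.6, which is the 40th percentile when the arrays are pooled, was treated as dim and set to that floor. Of all named genes, 70.9% were above the floor on at least 1 array, and these 7687 genes are called measured. A single array of each genotype allows no replicate check and no test, so genes were called by size alone, at more than 2-fold. To give a sense of technical spread, 287 genes had at least 2 probe sets that exceeded the floor on both arrays, and the log2 fold changes of the brightest pair differed with an SD of 0.74, which corresponds to 0.53 for a single probe set. RNA degradation raises the signal of 3′ probes over that of 5′ probes. This 3′ to 5′ ratio exceeded that of *yw* on the *mid* array for 18S rRNA (7.43 against 4.52), actin (53.5 against 28.8) and eIF-4a (63.3 against 50.8), while for GAPDH it was smaller (17.3 against 21.6). On both arrays the 3′ signal was several times the 5′ signal or more for each of these controls. The part of RNA degradation in the values below was not tested.

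None of the 8 gap and pair-rule genes was called higher or lower in the *mid* mutant embryos. *h*, *hb* and *odd* were above the floor on both arrays, while *Kr*, *gt*, *tll*, *opa* and *slp2* were at the floor on both and so could not be called. Thus 5 of 8 members were at the floor on both arrays, where 29.1% of all named genes were. Among all measured genes, 5.66% were called higher and 4.53% lower, so the count of 0 among 3 measured members stands close to the background. The median log2 fold change of the 3 measured members was 0.32, where that of all measured genes was 0.06. Because these are whole embryos, fewer cells that express a gene and less RNA per cell cannot be told apart.

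**Figure D1:**
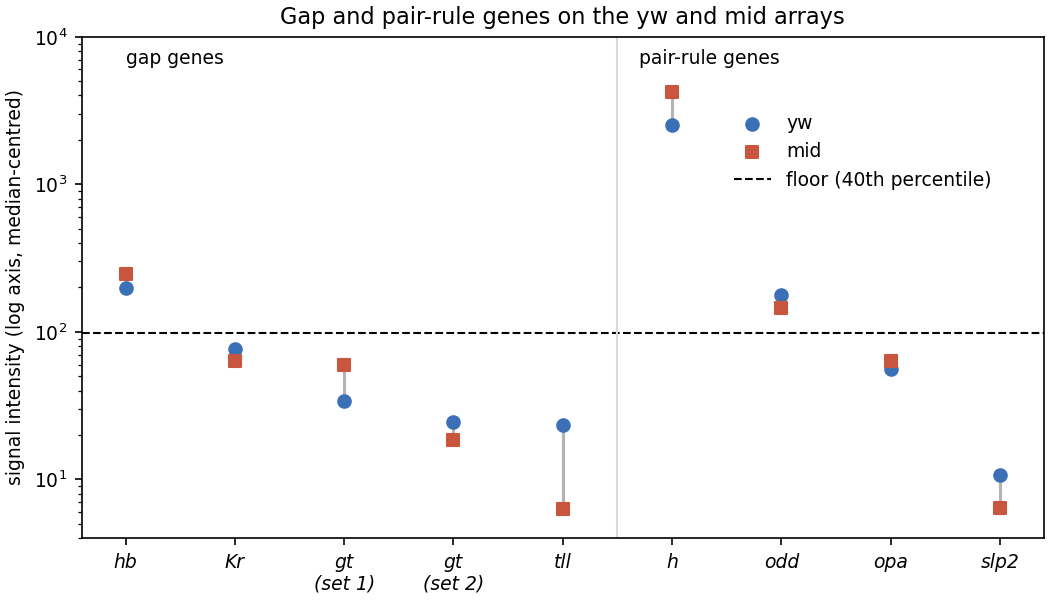
Signal intensity (log axis, arrays brought to a common median) of the 9 probe sets of 8 gap and pair-rule genes, with 1 point per array for *yw* (circles) and *mid* (squares) and the floor of 97.6 as a dashed line. *h*, *hb* and *odd* lie above the floor on both arrays and the other 6 probe sets lie below it on both.

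Among the gap genes, *hb* was the only one above the floor. *hb* encodes a zinc finger protein that patterns the anterior embryo and later specifies early-born neurons of many neuroblast lineages. It read 197 in *yw* and 246 in *mid*, which is 0.32 on the log2 scale (1.25-fold). This lifted it from percentile 56.7 of all signals on the *yw* array to percentile 61.2 on the *mid* array. A difference of this size was common, as 53.9% of measured genes differed by more in either direction. The arrays were also scaled on 9 probe sets of spiked control transcripts, which lowers all *mid* signals by a common factor. *hb* was then at -0.0046 and the median of measured genes at -0.24. With quantile normalisation and loess, which can move genes against each other, *hb* lay 0.28 above that median on the log2 scale.

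*Kr* encodes a zinc finger protein of the central embryo and is also used in the Malpighian tubules and in neuroblasts. Its signal was 77.0 in *yw* and 63.5 in *mid*, at percentiles 34.7 and 31.4. Of the members at the floor it lay nearest to it. No fold is given for *Kr*, as both signals were dim. The study lists *Kr* as down-regulated in the *mid* mutant.

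*gt*, which encodes a bZIP repressor, was the only member with 2 probe sets, and both were at the floor. The brighter one, whose name marks it as shared between transcripts, read 34.0 in *yw* and 59.4 in *mid*. The other read 24.6 and 18.6. The probe sets thus pointed opposite ways, and no direction is given for *gt*.

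*tll* encodes an orphan nuclear receptor of the embryo's ends, which later acts in the brain and optic lobe. It read 23.3 in *yw* and 6.28 in *mid*. These are percentiles 14.3 and 2.74, the largest shift in rank among the 9 probe sets. Without a floor *tll* would be called lower, with a log2 fold change of -1.89, but 13.1% of all named genes are called lower without a floor. Both signals lie far below the floor, so this value is given as a description of dim probe sets.

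Among the pair-rule genes, *h* had the brightest probe set and the largest log2 fold change of the 3 measured members. *h* encodes a bHLH repressor that recruits the corepressor Groucho, and outside segmentation it acts in salivary gland and sensory organ development. It read 2514 in *yw* and 4222 in *mid*, which is 0.75 on the log2 scale (1.68-fold). Its rank was near the top of either array, at percentile 93.8 in *yw* and 95.6 in *mid*. A higher log2 fold change was found for 829 of the measured genes (10.8%). *h* would pass a threshold of 1.5-fold, as 16.7% of measured genes would in that direction. The log2 fold change of *h* was 0.42 when scaled on the spiked controls, and -1.04 with the values as deposited (2514 and 1219), where the median of measured genes was -1.52. Such scalings change all *mid* signals by a common factor, but the floor is set anew each time, so the measured genes differ. *h* lay above the median of measured genes by 0.66 with the spiked controls and by 0.48 as deposited. With quantile normalisation and loess, *h* lay above the median of measured genes by 0.60 and 0.63 on the log2 scale.

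**Figure D2:**
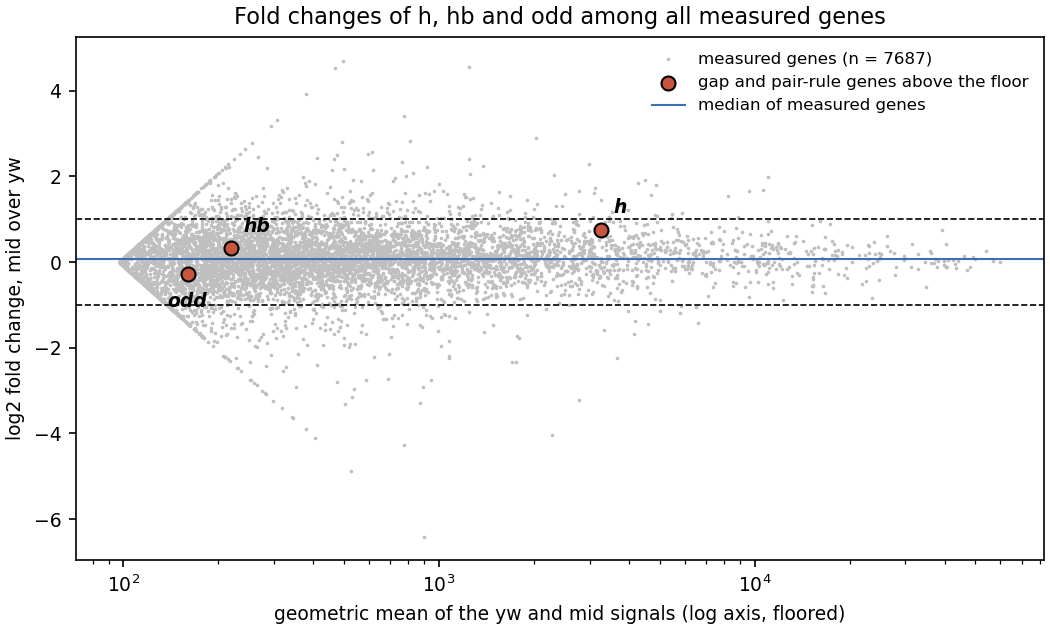
Log2 fold change of *mid* over *yw* against the geometric mean of the floored signals (log axis) for the 7687 measured genes in grey, with *h*, *hb* and *odd* marked and dashed lines at 2-fold. All 3 lie within 2-fold, *h* at 0.75, *hb* at 0.32 and *odd* at -0.28.

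*odd*, which encodes a zinc finger protein and is later expressed in nephrocytes and gut, read 177 in *yw* and 146 in *mid*. Its log2 fold change was -0.28, a shift from percentile 54.0 to 49.4. With quantile normalisation and loess it lay 0.28 and 0.29 below the median of measured genes. *odd* was not far above the floor on either array, and 59.3% of measured genes differed by more.

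*opa*, which encodes a zinc finger protein of the Zic family and acts later in midgut formation, read 56.0 in *yw* and 63.1 in *mid*. The forkhead gene *slp2* read 10.8 and 6.38, at percentiles 4.62 and 2.83, and was among the dimmest of the array. *slp1*, which lies next to *slp2* in the RefSeq annotation with no protein-coding gene between them, was not analysed here. Neither *opa* nor *slp2* has a fold, as each was at the floor on both arrays. Brightness also depends on the probes, so the order of these signals is not an order of RNA amounts.

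**Figure D3:**
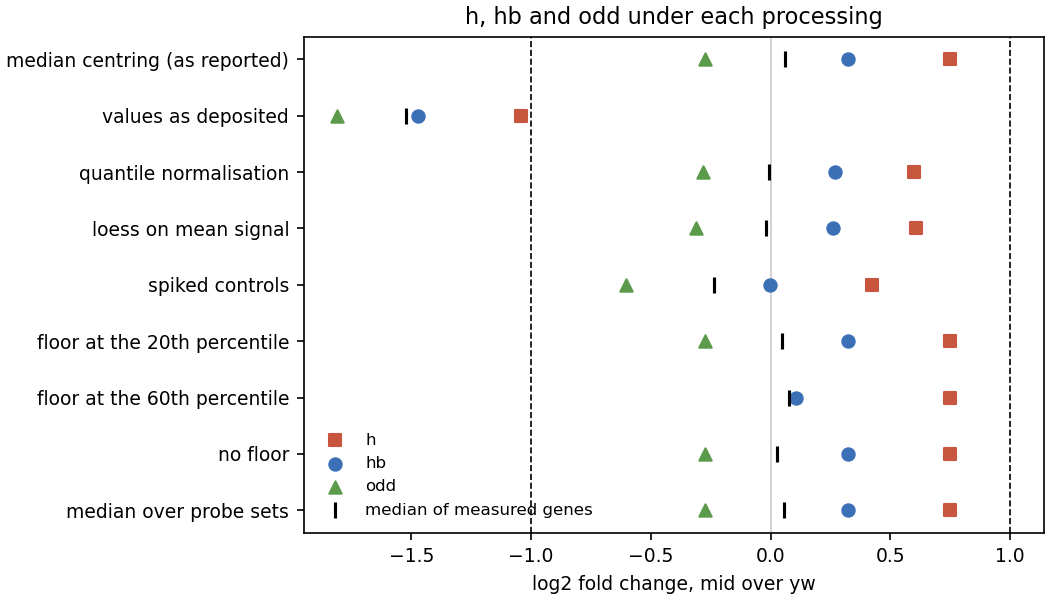
Log2 fold change of *h*, *hb* and *odd* (horizontal axis) under median centring and 8 alternatives, with the median of measured genes as a bar and dashed lines at 2-fold. The order *h*, *hb*, *odd* is the same wherever all 3 have a value, while values as deposited put all 3 and the median of measured genes below 0. *odd* as deposited and *hb* with the floor at the 60th percentile are lower bounds, and *odd* is at the floor on both arrays in the latter.

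Genes that act with the gap and pair-rule genes were described from 14 lists of 103 symbols. Of the 91 genes with a named probe set, 63 were measured. Of these 1 was called higher (1.59%) and 3 were called lower (4.76%), against 5.66% and 4.53% of all measured genes, and their median was 0.06, as over all measured genes. A total of 45 were within 2-fold, 14 had a bound under 2-fold, with 1 array at the floor, and 28 further genes were at the floor on both.

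Of the maternal and terminal inputs, which supply the gradients read by gap genes, 7 were measured and *bcd* was called lower. *bcd*, the anterior determinant, read 312 in *yw* and 25.8 in *mid*, at least 3.2-fold lower as it was at the floor in *mid*. This call is lost with the floor at the 60th percentile. The other 6 measured inputs were not called with the floor used here. Of these, *tor* (131 and 9.93), added after its values were seen, is called lower with the floor at the 20th percentile or with no floor. Of the other gap and head gap genes, 7 were measured and none was called. *pdm2*, a POU domain gene, read 232 in *yw* and 337 in *mid*, and its other probe sets read 153 and 367, and 99.7 and 112. *btd*, a head gap gene, read 163 and 140. *kni*, the gap gene of the abdomen, was outside the rule for naming genes and was added after its values were seen. It was at the floor in *yw* with 50.3 and read 171 in *mid*, at least 1.76-fold higher on the common scale. The study lists *kni* the other way, as down-regulated in the *mid* mutant, by its own cut-offs for fold change and P value. The direction given here for *kni* depends on scaling up the *mid* array. As deposited, 0 of the 8 genes measured in this list lay above 0, and *kni* was called neither higher nor lower.

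Of the homeodomain and secondary pair-rule genes, 4 were measured and none was called. *D*, a Sox gene, read 344 in *yw* and 328 in *mid*, and *eve* read 226 and 285. *ftz*, added after its values were seen, was at the floor on both arrays with 42.5 and 76.8.

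The called cofactors were *gro*, the corepressor of *h* and other pair-rule repressors, and *HDAC1*, a histone deacetylase of corepressor complexes. The brighter probe set of *gro*, whose name marks it as shared between transcripts, read 1292 and 384 (3.36-fold lower in *mid*). The other read 678 and 625, and *gro* is not called by the median of the pair. The study lists *gro* as down-regulated in the *mid* mutant. *HDAC1* read 1117 and 454 (2.46-fold lower) by its only probe set. None of the 9 measured cofactors and regulators was called higher. *CtBP*, the corepressor of *Kr* and other gap repressors, was added after its values were seen and read 1014 and 1133.

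Of the paralogs and relatives of the members, 25 were measured and none was called. A total of 18 were above the floor on both arrays, with log2 fold changes from -0.37 to 0.54, and 7 had only a bound. Of these, *Hey* (110 and 36.9), *fd59A* (138 and 52.4) and *jumu* (33.1 and 128), added after their values were seen, are called with the floor at the 20th percentile, the first pair lower and *jumu* higher. *sob*, the neighbour of *odd* in the annotation, read 159 in *yw* and 167 in *mid*. *bowl*, another gene of the *odd* family, read 432 and 477. *RunxA*, the only measured paralog of *run*, read 116 and 128. Among relatives of *h*, *cwo* read 1604 and 1927 by its brighter probe set but 225 and 103 by the other, and *E(spl)mbeta-HLH* read 525 and 720. Of 9 measured forkhead genes, related to *slp1* and *slp2*, the brightest were *bin* (390 and 301) and *fd96Cb* (232 and 192). Of the nuclear receptors listed with *tll*, *Hr78* read 1040 and 1267 and *svp* read 149 and 137. The bZIP genes *Pdp1* (633 and 693) and *vri* (137 and 168), listed with *gt*, and the zinc finger genes *sug* (1002 and 1296) and *ci* (246 and 357), listed with *opa*, were likewise within 2-fold.

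Downstream of the pair-rule genes, all 7 measured segment polarity targets had log2 fold changes above 0 (median 0.54), as did 6 with quantile normalisation or loess, 4 with the spiked controls and 0 as deposited. With the floor at the 20th percentile 8 lay above 0 and 3 below (median 0.20), with no floor 8 above and 4 below (median 0.12), and the median over probe sets gave 0.29. Of the 7, *nkd*, added after its values were seen, has only a bound (57.3 in *yw* and 148 in *mid*). Its other probe set went the opposite way (98.5 and 12.3). The only call was *H15*, the T-box paralog that lies next to *mid*, which read 135 and 391 (2.9-fold higher), which the floor at the 60th percentile does not call. Of 2 measured Hox genes, *Antp* had a brighter probe set with 240 and 385 and a dimmer one with 106 and 52.7, and *Dfd* read 103 and 117. In the list of neuroblast temporal factors, which follow *hb* and *Kr* in neuroblast lineages, 8 were measured and none was called. *D* and *pdm2*, given above, were the brightest of these.

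**Figure D4:**
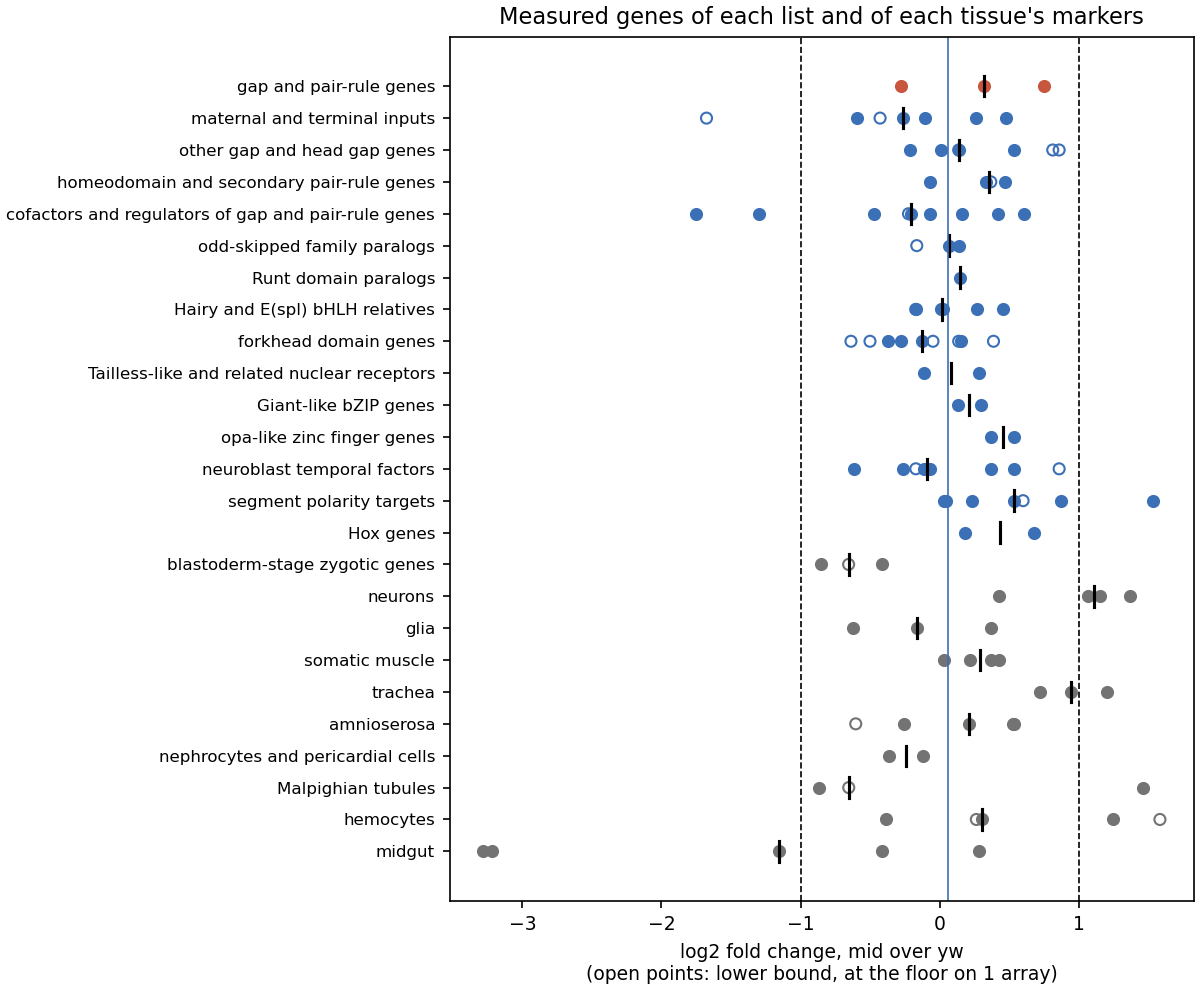
Log2 fold change of *mid* over *yw* for each measured gene (points) of the gap and pair-rule genes, of 14 lists of related genes and of 10 lists of tissue markers, with list medians as black bars, dashed lines at 2-fold and the median of measured genes as a blue line. Open points are lower bounds. *bcd*, *gro* and *HDAC1* lie below -1 and *H15* above 1 among the related genes.

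Markers of the tissues and stages in which gap and pair-rule genes are used were read in the same way. Genes of the cellularising blastoderm, the stage of the segmentation stripes, were mostly dim, and none was called. Of 8 such genes 5 were at the floor on both arrays, and the 3 measured had log2 fold changes below 0, of which 1 was a bound (median -0.65, where all measured genes had 0.06). The brightest were *slam* (361 in *yw* and 199 in *mid*) and *Sry-alpha* (133 and 99.5). With the spiked controls *slam* is called lower. *nullo* (154 and 30.7), added after its values were seen, is called lower with the floor at the 20th percentile or with no floor. The summed signal of all 8 genes, including the 5 at the floor, was 739 in *yw* and 444 in *mid*.

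Of 6 neuronal genes with a probe set, 4 were measured and 3 were called higher, with a summed signal of 1272 in *yw* and 2453 in *mid*, but only 1, *fne*, was called with the spiked controls. *fne* read 432 and 1113, while *nSyb* read 363 and 487. Of 4 tracheal genes 3 were measured, 1 was called higher (0 with the spiked controls), and the sum was 5597 and 10940. *verm* read 3543 and 6801, and *serp* read 1110 and 2559 (2.31-fold). Of 5 midgut genes 3 were called lower, with a sum of 20246 and 6191, including *Jon25Bi* (7457 and 3356) and *Jon74E* (8449 and 908). The parts of embryo age and of tissue makeup in the values of *h*, *hb* and *odd* were not tested.

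Somatic muscle genes were bright on both arrays and none of 4 was called (*Mlc2* 56224 and 57336, *Mlc1* 25661 and 29772). Of 5 measured amnioserosa genes none was called (*Doc1* 396 and 459, *tup* 282 and 236). The nephrocyte and pericardial genes *Ance* (3161 and 2914) and *sns* (305 and 238) were within 2-fold, as was *odd*, which those cells express. Of 3 Malpighian tubule genes, *Irk3* was called higher (128 and 353), while *Alp4* read 387 and 213. With the spiked controls *Alp4* is called lower. Of 5 hemocyte genes 2 were called higher (1 with the spiked controls), whereas *Hml* read 677 and 519 and *Pxn* read 497 and 614. Among glial genes none of 3 was called (*loco* 479 and 619, *repo* 357 and 232).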

How the data were processed

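RNA of 1 *yw* and 1 homozygous *mid* embryo sample was measured on Affymetrix *Drosophila* arrays. The deposited values are linear signal intensities, which the authors made with MAS5 according to the submitters' processing notes. For MAS5 neither a version nor a scaling target is given in the sources used here. The *mid* array was scaled to the median of the *yw* array, and signals under a floor of 97.6 (the 40th percentile of both) were raised to it before log2 fold changes of *mid* over *yw* were computed. The brightest probe set stood for a gene. The floor is not a detection call. Since the values give no depth, the number of arrays limits the precision.

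Probe sets were named from a platform annotation (12443 with a single symbol, 327 with several and 1240 unnamed), with symbols updated by gene ID through a RefSeq table of Release 6, which lacks 46 of the named genes. No sequences or coordinates are given. Members, lists and settings were chosen with earlier results of these data known. All members are named. Of each related list the genes called were named, up to 4, or else the 2 brightest measured, and of each marker list the 2 brightest. Exceptions are marked. The calling code was run on simulated arrays with large planted changes in bright probe sets. That run does not test calls near 2-fold or near the floor. Other scalings tried were no scaling, quantile normalisation, loess (span 0.3) and the spiked controls. A floor at the 20th percentile, a floor at the 60th percentile, no floor, thresholds of 1.5-fold and 3-fold, and the median over probe sets were also tried. Python 3.11.15 was used with pandas 2.3.3, numpy 2.4.6, matplotlib 3.10.9 and, for loess, statsmodels 0.14.6.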

Additional observations from a re-analysis of the deposited data

How the results depend on the processing

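With quantile normalisation, loess, spiked controls, a floor at the 20th or 60th percentile, the median over probe sets and a threshold of 3-fold, no gap or pair-rule gene was called. With the values as deposited 3 were lower (log2 fold changes of *h* -1.04, *hb* -1.47 and *odd* -1.81, the last a bound). The member median was then -1.04 over 5 genes, as *Kr* and *opa* enter with bounds of -0.61 and -0.15, while the median of measured genes lay at -1.52. With no floor 1 was lower (*tll*), and at 1.5-fold 1 was higher (*h*). With no floor the member median was -0.05 over 8 genes, and with the spiked controls -0.0046. *odd* has no value with the floor at the 60th percentile.

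Among the related genes, 1 was called higher and 3 lower. These counts were 0 and 54 as deposited, 5 and 7 with the floor at the 20th percentile, 0 and 2 at the 60th, 9 and 11 with no floor, 7 and 6 at 1.5-fold, and 0 and 2 at 3-fold. Over all measured genes 435 were higher and 348 lower (55.6% higher). These were 19 and 6417 as deposited (0.295% higher), 204 and 717 with the spiked controls (22.1% higher), 882 and 901 with the floor at the 20th percentile, 228 and 166 at the 60th, 1220 and 1418 with no floor, 1284 and 987 at 1.5-fold, and 101 and 108 at 3-fold. The cause of the difference between scalings was not tested. The 5 members at the floor are limited by dim signal, and 1 array per genotype leaves no replicate check. No paired analysis was possible because each genotype has 1 array.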
